A study of Mus musculus with 18 samples.

Results

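The laminin and integrin genes were taken as the protein-coding autosomal genes of GENCODE vM21 whose symbol is that of a laminin chain (Lama, Lamb or Lamc with a number), an integrin alpha subunit (Itga) or an integrin beta subunit (Itgb). There were 37 of them among 20807 protein-coding autosomal genes, namely 11 laminin genes, 18 integrin alpha genes and 8 integrin beta genes. The chromatin marks H3K27me3 and H3K27ac were mapped at these genes by ChIP-seq of bone marrow-derived macrophages (BMDM), which are cultured from marrow in medium that holds macrophage colony-stimulating factor from L929 cells. WT macrophages came from mice labelled C57BL6, mdx macrophages from mice labelled Dmdmdx-4Cv, which carry the dystrophin mutation that models Duchenne muscular dystrophy, and mdxTLR4-/- macrophages from mice labelled Bl6/Bl10, which carry the dystrophin mutation and lack Toll-like receptor 4. All cells were untreated, and by the methods of the study all mice were male. Each genotype had 2 H3K27me3 ChIP libraries with 2 inputs. The H3K27ac libraries numbered 2 from WT, 2 from mdx and 1 from mdxTLR4-/-, and a single H3K27ac input had no genotype in its label. By the labels the mice of the H3K27me3 ChIP libraries were 12 to 17 weeks old and those of the H3K27ac libraries 19 to 23 weeks, with WT the youngest and mdxTLR4-/- the oldest for each mark. The labelled ages rise by 1 week from library to library, inputs included, and may be an entry error, which was not tested. Genotype and labelled strain, and age if the labels are right, cannot be told apart. The replicates of a genotype were merged before peaks were called, so each mark and genotype is 1 peak list, no test between genotypes was possible, and the intervals given here cover counting error only.

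Laminins are secreted trimers of an alpha, a beta and a gamma chain that build the network of basement membranes, the sheets of matrix around muscle fibres, vessels and epithelia. Integrins are receptors of 1 alpha and 1 beta subunit that span the membrane, bind laminin, other matrix proteins or ligands on other cells, and couple them to the actin cytoskeleton. In muscle, laminin is held by dystroglycan and by an integrin of Itga7 and Itgb1, while macrophages and other leukocytes use integrins of Itgb2 to adhere, migrate and take up particles. H3K27me3, the trimethylation of lysine 27 of histone H3 by the Polycomb complex, lies over genes that are kept silent and often spreads in broad domains, whereas H3K27ac, the acetylation of the same lysine, marks active promoters and enhancers.

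Each of the 37 genes carried H3K27me3 over its start, H3K27ac near its start, or neither, and none carried both in the same genotype. The Polycomb mark covered most of the window of Lama5, Lamc3, Itga3, Itga7, Itga11, Itga2b, Itgb3 and Itgb4 in all 3 genotypes. They include genes of basement membranes, epithelium, muscle, fibroblasts and platelets. Other genes of basement membranes and epithelium, such as Lama2, Lamc1 and Itga6, had little or no H3K27me3. The leukocyte and widely used integrins Itgam, Itgb2, Itga4, Itgav and Itgb1 had no H3K27me3 peak and carried H3K27ac near their start in all 3 genotypes. Between genotypes most members differed by less than 10 points of coverage. The laminin genes Lamb2 and Lama5 had less H3K27me3 coverage in mdx than in WT and less again in mdxTLR4-/-, Lama3 and Lamb1 had most in mdx, and the integrin genes Itgax, Itga9 and Itgb3 had at least 10 points less in mdxTLR4-/- than in WT.

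The promoters of 6 members are shown because they stand at the ends of this range. The first set of 3 carried H3K27ac near the start in all 3 genotypes, with the most H3K27ac reads in WT among the members that have a promoter in the reference table. The other set of 3 had the highest H3K27me3 coverage in WT among those members. Each sequence is RefSeq GRCm38.p6, the assembly of mm10, from 250 bases before to 50 bases after the RefSeq start, on the strand of the gene, with each CG dinucleotide in capitals.
Itgb1, chr8:128685404-128685703, plus strand: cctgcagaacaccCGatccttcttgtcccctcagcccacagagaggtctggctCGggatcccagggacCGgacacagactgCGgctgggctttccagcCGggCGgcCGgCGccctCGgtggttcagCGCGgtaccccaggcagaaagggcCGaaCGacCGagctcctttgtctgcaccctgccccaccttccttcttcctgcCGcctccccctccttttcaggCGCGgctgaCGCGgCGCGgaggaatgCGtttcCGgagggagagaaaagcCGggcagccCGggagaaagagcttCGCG
Itgam, chr7:128062390-128062689, plus strand: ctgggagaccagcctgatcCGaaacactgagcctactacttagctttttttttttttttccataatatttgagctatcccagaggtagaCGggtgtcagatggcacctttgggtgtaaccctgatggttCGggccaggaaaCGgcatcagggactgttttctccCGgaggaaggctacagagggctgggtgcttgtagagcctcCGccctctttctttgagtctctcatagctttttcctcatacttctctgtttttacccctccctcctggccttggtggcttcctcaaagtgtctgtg
Itga4, chr2:79255176-79255475, plus strand: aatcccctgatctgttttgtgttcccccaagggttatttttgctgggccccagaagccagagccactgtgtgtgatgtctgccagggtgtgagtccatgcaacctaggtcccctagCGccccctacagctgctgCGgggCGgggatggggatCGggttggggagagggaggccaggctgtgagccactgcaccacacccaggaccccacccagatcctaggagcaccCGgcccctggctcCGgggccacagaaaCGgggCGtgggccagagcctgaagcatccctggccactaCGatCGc
Itga3, chr11:95076665-95076964, minus strand: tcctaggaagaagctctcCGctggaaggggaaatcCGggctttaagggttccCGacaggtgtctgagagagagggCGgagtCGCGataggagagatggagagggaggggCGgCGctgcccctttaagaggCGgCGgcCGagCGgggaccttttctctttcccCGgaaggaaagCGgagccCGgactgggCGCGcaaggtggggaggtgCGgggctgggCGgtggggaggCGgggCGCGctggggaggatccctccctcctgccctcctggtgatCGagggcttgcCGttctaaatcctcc
Itga11, chr9:62677605-62677904, plus strand: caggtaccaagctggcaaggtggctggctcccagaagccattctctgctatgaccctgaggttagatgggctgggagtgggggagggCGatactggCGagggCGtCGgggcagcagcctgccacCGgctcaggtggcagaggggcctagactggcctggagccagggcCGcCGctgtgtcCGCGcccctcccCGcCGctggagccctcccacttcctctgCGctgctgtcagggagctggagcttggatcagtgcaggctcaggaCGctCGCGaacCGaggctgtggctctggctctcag
Itga2b, chr11:102469834-102470133, minus strand: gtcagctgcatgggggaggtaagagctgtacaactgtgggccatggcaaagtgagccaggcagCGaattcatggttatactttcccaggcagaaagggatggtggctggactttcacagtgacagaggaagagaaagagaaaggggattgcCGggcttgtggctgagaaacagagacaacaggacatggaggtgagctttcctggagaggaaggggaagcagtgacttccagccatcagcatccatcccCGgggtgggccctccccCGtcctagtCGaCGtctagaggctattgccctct

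The promoters of Itgb1 and Itga3 were both dense in CG, with 27 and 24 CG dinucleotides, although the first was acetylated and the second lay under H3K27me3. The promoters of Itgam and Itga2b held 6 each, again with opposite marks, Itga4 held 10 and Itga11 held 16. Itgam and Itga2b also shared the letters GAGGAAG, the core of the site of PU.1, the factor that directs myeloid development. On either strand these letters began at -84 and 31 from the start in Itgam, at -126 and -44 in Itga2b and at -39 in Itga11, and they were not found in the windows of Itgb1, Itga4 and Itga3.

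The H3K27me3 lists of WT, mdx and mdxTLR4-/- held 28143, 41780 and 36488 peaks, with 8331331, 10199918 and 7358418 reads in peaks. The 3 H3K27ac lists were shallow, with 15665, 12076 and 12493 peaks and 274020, 191629 and 168487 reads in peaks, a median of 8 to 10 reads per peak and a minimum of 5. Of 10 macrophage markers, 10 in WT, 9 in mdx and 10 in mdxTLR4-/- had an H3K27ac peak within 5 kb of the start. The exception was Csf1r, the receptor of macrophage colony-stimulating factor, whose nearest mdx peak, with 165 reads, began 5003 bp from the start. The markers of skeletal muscle, fibroblasts, T cells, epithelium and neutrophils had 0 such peaks in each genotype, while the B cell gene Cd79a had 11 reads in WT and 0 in mdx and mdxTLR4-/-, and the endothelial marker Pecam1, which macrophages also express, had 46, 47 and 23. Tlr4 had no H3K27me3 peak and 44, 29 and 28 H3K27ac reads near its start in WT, mdx and mdxTLR4-/-, which does not check the deletion, since a peak near the start does not show whether the deleted part is there.

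H3K27me3 was measured as coverage, the share of the gene window that lay under peaks, where the window is the gene body with the 5 kb before it and the 1 kb after it. Coverage was at least 50% for 11 of 37 members in WT (29.7%), against 17.5% of all genes. It was at least 50% for 10 members in mdx, against 17.1% of all genes, and for 9 in mdxTLR4-/- (24.3%), against 15.6%. Those 9, among them Lama5, Lamc3, Itga3, Itga7, Itga11, Itga2b, Itgb3 and Itgb4, were at least 50% covered in all 3 genotypes. At the other end, 13 members (35.1%) had no H3K27me3 peak in any genotype, against 53.7% of all genes. The median coverage of the members was 3.69%, 5.77% and 2.44% in WT, mdx and mdxTLR4-/-, and the mean 27.1%, 26.5% and 23.1%, beside a median of 0 in each genotype and means of 18.4%, 18.2% and 16.8% over all genes. Apart from the members with no peak, coverage ranged from 1.73% at Lama4 to 100% at Lamc3 and Itga3 in WT, with no member between the 32.0% of Lama3 and the 56.6% of Itga9, as the plot of coverage by gene shows.

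**Figure D1:**
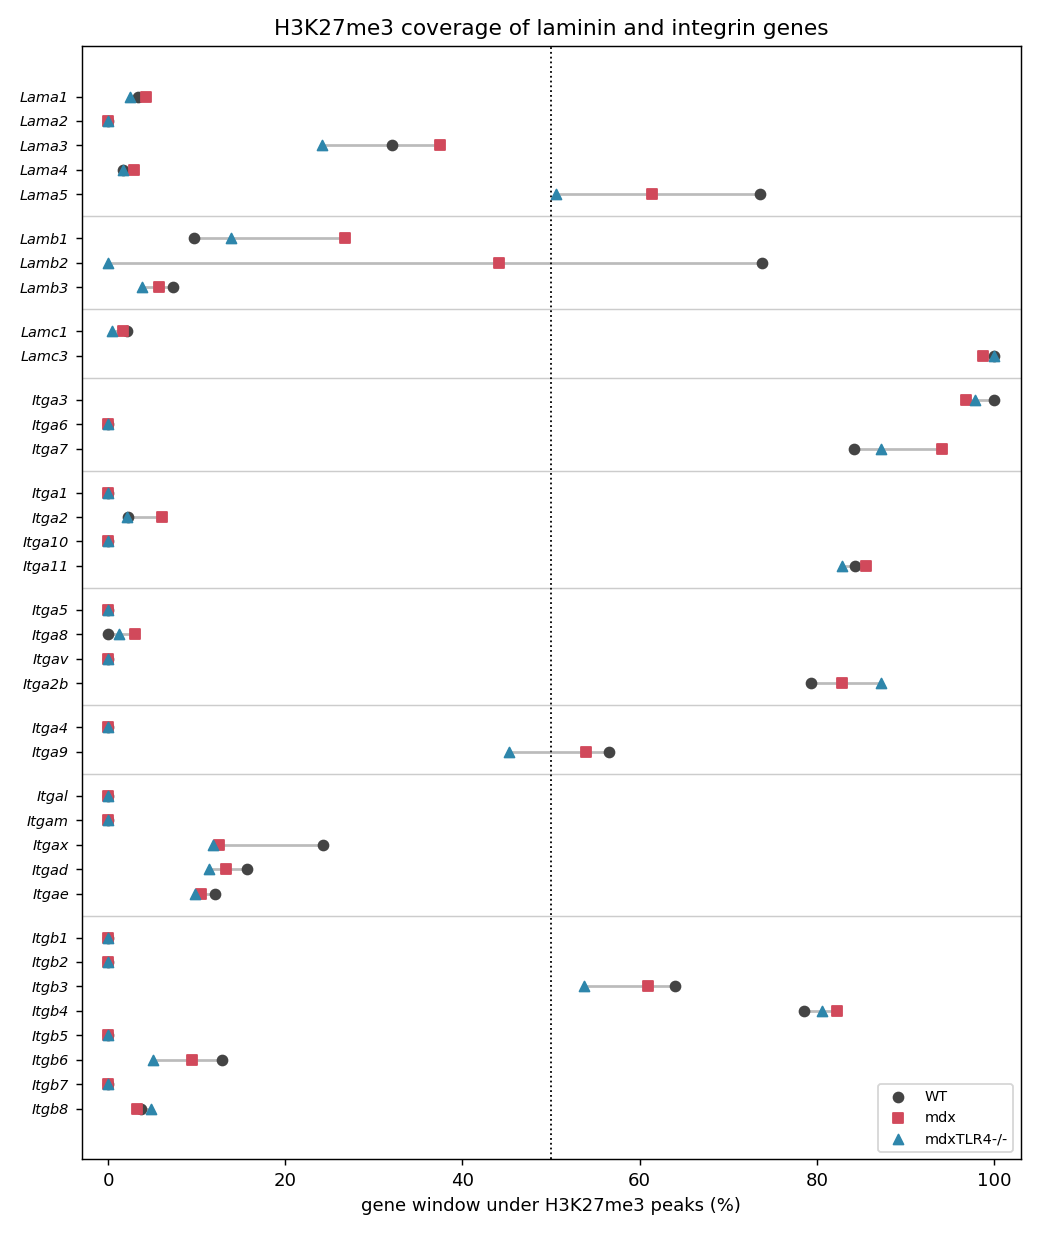
H3K27me3 coverage (% of the gene window under peaks, horizontal axis) of the laminin and integrin genes named in the text, in WT (circles), mdx (squares) and mdxTLR4-/- (triangles), grouped by role with grey lines between groups and a dotted line at 50%. Each point is 1 merged peak list; points at 0 lie on each other, and the widest spread between genotypes is that of Lamb2, from 73.8% to 0.

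The gene start itself lay under an H3K27me3 peak in 17 members in WT, against 24.5% of all genes. The count was 17 members in mdx, against 24.7% of all genes, and 16 in mdxTLR4-/-, against 23.6%, which amounts to 45.9%, 45.9% and 43.2% of the members. The 17 were the same genes in WT and mdx, and Lamb2 was the gene that was missing in mdxTLR4-/-. All 11 members with coverage of at least 50% in WT had a covered start. A further 5 in WT, namely Lama1, Lama4, Lamb1, Itga2 and Itgb8, had a covered start although under 10% of the window was covered, which describes a narrow peak at the start of a long gene. In 7 members, namely Lamb3, Lamc1, Itga8, Itgax, Itgad, Itgae and Itgb6, H3K27me3 lay in the window and not over the start in any genotype. At Itga8 a peak nevertheless began close to the start, 322 bp past it in mdx and 122 bp past it in mdxTLR4-/-.

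Among the laminin alpha chains, which carry the domains that bind integrins and dystroglycan, coverage ranged from 0 to 73.6% in WT. Lama5, the alpha chain of most adult epithelial and vascular basement membranes (chr2:180176373-180225859, minus strand), was covered over 73.6% in WT, 61.4% in mdx and 50.6% in mdxTLR4-/-. Its start lay in a peak of 37000 bp with 1434 reads in WT, of 15800 bp with 1002 reads in mdx and of 19800 bp with 958 reads in mdxTLR4-/-. The peak over the start was therefore shorter in both dystrophic genotypes. Shorter peaks were not particular to Lama5, since the median peak of the whole list was 5400 bp in WT and 3400 bp in mdx and mdxTLR4-/-. The 3′ part of the gene, covered up to 39858 bp from the start in WT and 40458 bp in mdx, was covered only up to 28258 bp in mdxTLR4-/-.

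Lama3, the alpha chain of the laminin that anchors epidermis (chr18, 249 kb long), was covered over 32.0%, 37.5% and 24.1% in WT, mdx and mdxTLR4-/-, in 16, 26 and 18 separate peaks. Lama1, the alpha chain of embryonic basement membranes, had 1 peak over its start in each genotype, with 166, 237 and 142 reads and coverage of 3.35%, 4.26% and 2.44%. Lama4, a chain of vessel walls, had a peak over its start with 68, 83 and 69 reads. Lama2, the alpha chain of the muscle fibre basement membrane, had no H3K27me3 peak in any genotype and no H3K27ac peak within 5 kb of the start. The alpha chains of muscle and epidermis were thus marked differently, Lama2 by neither mark at its start and Lama3 by H3K27me3.

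Among the laminin beta chains, Lamb2, a chain of the neuromuscular junction and of kidney and vessel basement membranes (chr9:108479736-108490530, plus strand), had the largest differences of the 37 members. A single H3K27me3 peak covered its start in WT, from -4935 to 7464 bp of the start, with 315 reads (95% Poisson interval 281 to 352). In mdx the peak ran from -2535 to 4864 bp with 242 reads (212 to 274), and in mdxTLR4-/- no peak was called. Coverage was 73.8%, 44.1% and 0, which was -29.8 points from WT to mdx and -44.1 points from mdx to mdxTLR4-/-. Lamb2 was the 1 member with coverage of at least 50% in WT and below it in mdx. That no peak was called does not show that the mark was absent, since the lists hold no values outside peaks.

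Lamb1, the beta chain of many basement membranes (chr12:31265234-31329644, plus strand), was covered over 9.66% in WT, 26.7% in mdx and 13.9% in mdxTLR4-/-. The start lay under a peak in each genotype, with 193, 301 and 209 reads in WT, mdx and mdxTLR4-/-. The higher mdx value came from 3 further peaks in the gene body with 61, 80 and 70 reads, none of which overlapped a peak in WT or mdxTLR4-/-. The 3 peaks were of low density, with 17.9, 18.2 and 20.6 reads per kb, and when the same number of peaks was taken from each list, the densest first, 0 members were higher by at least 10 points in mdx than in WT. Lamb3, the beta chain of the epidermal laminin, was covered over 7.37%, 5.77% and 3.80%. The GENCODE gene begins 94544 bp before the RefSeq start of Lamb3, and that RefSeq start lay under a peak of 62 reads in mdx and of 64 reads in mdxTLR4-/-, and under none in WT.

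**Figure D2:**
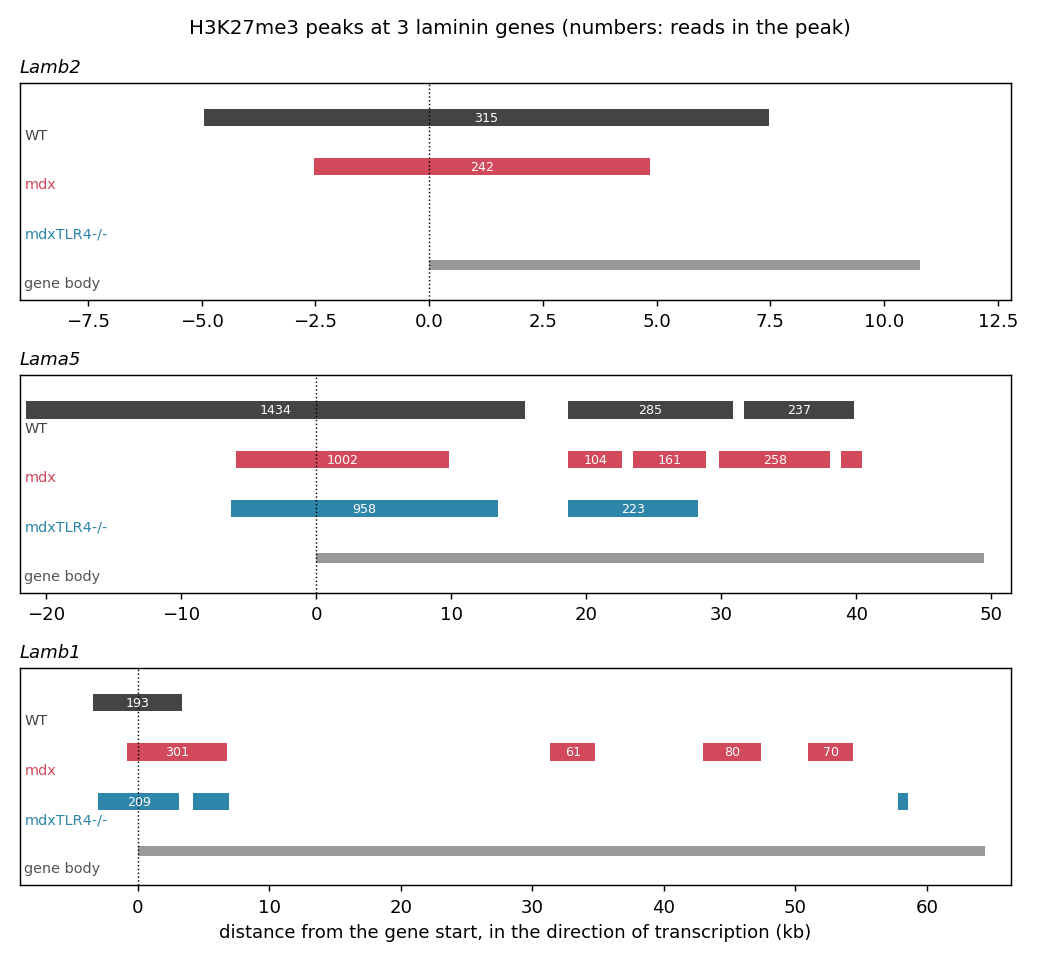
H3K27me3 peaks at Lamb2, Lama5 and Lamb1 in WT, mdx and mdxTLR4-/-, as bars along the distance from the gene start in kb, with the gene body in grey and the unscaled reads of the wider peaks written in them. The peak over the start is shorter in mdx than in WT at Lamb2 and Lama5, no peak is drawn for Lamb2 in mdxTLR4-/-, and at Lamb1 mdx has 3 peaks in the gene body. The median peak of the whole list is also shorter in mdx, 3400 bp against 5400 bp in WT.

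The laminin gamma chains differed from each other. Lamc3, the gamma chain with the most restricted tissue pattern, was covered over 100%, 98.8% and 100% in WT, mdx and mdxTLR4-/-. It lay in a domain of 156800 bp with 9012 reads in WT that also held the starts of Aif1l, Fibcd1 and Qrfp, so this coverage is not particular to Lamc3. Lamc1, the gamma chain of most laminins, had coverage of 2.16%, 1.67% and 0.489%, all of it upstream of the start. The start of Lamc3 was thus covered and that of Lamc1 free in all 3 genotypes.

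Of the integrin alpha subunits that bind laminin, Itga3, a subunit of epithelial laminin receptors, was covered over 100%, 96.9% and 97.9% in WT, mdx and mdxTLR4-/-. Its domain of 209400 bp with 11475 reads in WT was the longest peak at any member and also held the starts of Dlx3 and Dlx4, homeobox genes. Itga7, the alpha subunit of the laminin receptor of muscle fibres (chr10:128933818-128958282, plus strand), was covered over 84.2%, 94.1% and 87.3%. Itga6, the subunit of hemidesmosomes and of many stem cells, had no H3K27me3 peak in any genotype. It had no H3K27ac peak within 5 kb of the 5′ end of the gene either, but 7 reads in WT and 7 in mdx lay within 5 kb of the start of another transcript, and none did in mdxTLR4-/-. Among the 3 laminin-binding subunits, Itga3 and Itga7 were thus under H3K27me3 and Itga6 was not.

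The collagen-binding subunits differed in the same manner. Itga11, a subunit of fibroblasts that binds fibrillar collagen (chr9:62677826-62783982, plus strand), was covered over 84.3%, 85.6% and 82.9%. Itga2, the collagen receptor subunit of platelets and epithelium, had a peak over its start with 99, 217 and 86 reads in WT, mdx and mdxTLR4-/-, of 2400, 6400 and 2200 bp. Itga1 and Itga10 had no H3K27me3 peak in any genotype, and Itga1 lies 21.0 kb from Itga2 on chromosome 13.

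Of the subunits that bind the RGD sequence of fibronectin and vitronectin, Itga2b, the platelet fibrinogen receptor subunit, was covered over 79.3%, 82.8% and 87.2%, with 4.38 points from mdx to mdxTLR4-/- as the largest difference upwards in that comparison. Itga5, the fibronectin receptor subunit, and Itgav, the vitronectin receptor subunit, had no H3K27me3 peak. Itga8, a subunit of kidney and smooth muscle, had none in WT and coverage of 2.98% in mdx and 1.19% in mdxTLR4-/-. This included a peak just past its start, with 45 reads in mdx and 43 in mdxTLR4-/-. Itga4, the leukocyte subunit that binds VCAM1, had no H3K27me3 peak, while the related Itga9 (chr9:118606690-118901003, plus strand) was covered over 56.6%, 54.0% and 45.2%. Itga9 was thereby just above 50% in WT and mdx and just below it in mdxTLR4-/-.

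The leukocyte alpha subunits had little H3K27me3. Itgam, the CD11b subunit that is used to identify macrophages, and Itgal, the CD11a subunit of lymphocytes and other leukocytes, had no peak in any genotype. Itgax, the CD11c subunit of dendritic cells (chr7:128129547-128150657, plus strand), was covered over 24.3% in WT, 12.5% in mdx and 11.8% in mdxTLR4-/-, away from its start. The peak at the 3′ end of Itgax, with 111, 54 and 72 reads, also lay in the upstream window of Itgad, whose gene begins 3.72 kb further on, so that these 2 members are not independent. Itgad was covered over 15.7%, 13.3% and 11.4%, and Itgae, a subunit of epithelial T cells, over 12.1%, 10.5% and 9.86%. Itgam lies 11.1 kb from Itgax, so the free and the partly covered genes of this group were neighbours.

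Of the beta subunits, Itgb1, Itgb2, Itgb5 and Itgb7 had no H3K27me3 peak in any genotype. Itgb4, the hemidesmosome subunit that pairs with Itga6, was covered over 78.6%, 82.3% and 80.6%, and Itgb3, the subunit of platelets and osteoclasts, over 64.0%, 61.0% and 53.7%. Itgb6, a subunit of epithelium, was covered over 12.9%, 9.51% and 5.06%, and Itgb8 had a peak over its start with 132, 145 and 138 reads. Partners could therefore differ: Itgb4 was under H3K27me3 in all 3 genotypes, and its partner Itga6 had no peak in any.

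From WT to mdx, coverage was lower by at least 10 points for 3 members, Lamb2, Lama5 and Itgax (8.11%), against 5.79% of all genes. It was higher by at least 10 points for 1 member, Lamb1 (2.70%), against 5.04%. Counting every difference, 13 members were lower in mdx, 11 were higher and 13 were the same, and the mean difference was -0.584 points. Over all genes 4219 were lower, 4049 higher and 12539 the same, which is 20.3%, 19.5% and 60.3% beside 35.1%, 29.7% and 35.1% of the members, and the mean difference was -0.188. More members than genes in general thus differed in either direction, but fewer of them lacked an H3K27me3 peak in every genotype, 35.1% against 53.7%. A gene without a peak cannot differ, and the part of this in the shares was not tested. Of genes with coverage in WT, 13 of 23 members were lower in mdx, against 4219 of 8334 over all. Itga7 followed Lamb1 upwards with 9.85 points, and Lama3 with 5.41 points. These counts depend on the peak number: with the same number of peaks taken from each list, 6 members were lower and 0 higher by at least 10 points, and the mean difference was -2.61.

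From mdx to mdxTLR4-/-, coverage was lower by at least 10 points for 4 members, all of them laminin genes: Lamb2, Lama3, Lamb1 and Lama5 (10.8%), against 8.03% of all genes. It was higher by at least 10 points for 0 members, against 2.60% of all genes. Of the 11 laminin genes, 9 were lower in mdxTLR4-/- than in mdx, 1 was higher and 1 had no coverage in either. Their mean difference was -8.51 points, to which Lamb2 added most with -44.1, and their median was -1.97. Of the 26 integrin genes 11 were lower, 3 higher and 12 the same, with a mean of -1.30 and a median of 0. The same direction prevailed over all genes, of which 5595 (26.9%) were lower and 2758 (13.3%) higher, with a mean difference of -1.47 points. Among genes covered in mdx, 9 of 10 laminin genes and 11 of 14 integrin genes were lower, against 5595 of 8927 over all.

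From WT to mdxTLR4-/-, coverage was lower by at least 10 points for 5 members, Lamb2, Lama5, Itgax, Itga9 and Itgb3 (13.5%), against 8.82% of all genes, and higher by that much for 0, against 2.67%. These comparisons share lists and are not independent of each other. Of the 24 members with any coverage, 15 (62.5%) had their lowest value in mdxTLR4-/-, against 40.3% of the genes with any coverage. In 10 members coverage was lower in mdx than in WT and lower again in mdxTLR4-/-, among them Lamb2, Lama5, Itgb3 and Itga9. These 10 of 37 members stand against 9.48% of all genes, and they were 41.7% of the members with any coverage, against 20.5% of such genes. In another 10 it was highest in mdx, among them Lamb1, Lama3, Itga7 and Itga2, against 15.6% of all genes, and this was 41.7% of the members with any coverage, against 33.8% of such genes. Itgax and Itgad, both among the first 10, share a peak. The members were also longer than genes in general, with a median gene length of 64.4 kb against 17.6 kb. The part of length in these shares was not tested. None of the 3 members that were at least 10 points lower in mdx than in WT was higher in mdxTLR4-/- than in mdx. Over all genes 13.3% were higher in mdxTLR4-/- than in mdx, and 3 members are too few to set apart from that share. The share among all genes that were lower by 10 points in mdx was not computed.

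Read density, the reads per kb of the peaks in the window, gave another order of genotypes than coverage, and its direction depended on the scaling. The unscaled ratio of mdx to WT had a median of 1.18 over 23 members with peaks in both and was above 1 in 21 of them, but the median was 0.962 when reads were scaled by the total in the peaks of each list, and 1.01 when densities were divided by the 1st percentile of their list. Over all genes the medians were 1.20, 0.982 and 1.03. The ratio of mdxTLR4-/- to mdx had a median of 0.830 unscaled, 1.15 by the first scaling and 1.06 by the second, beside 0.812, 1.13 and 1.03 over all genes. The ratio of mdxTLR4-/- to WT had medians of 0.967, 1.09 and 1.06, beside 0.975, 1.10 and 1.07. The density of H3K27me3 at these genes therefore moved with that of all genes under each scaling.

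The laminin genes with large differences of coverage, and the 2 members at the ends of the ratio of mdxTLR4-/- to mdx, are given singly. Lama5 had 34.1 reads per kb in WT and 45.3 in mdx, an unscaled ratio of 1.33 (95% exact interval 1.24 to 1.42), above the medians of the members and of all genes. It was 1.09 (1.02 to 1.16) by the first scaling and 1.14 (1.07 to 1.22) by the second, so that its mdx peaks were denser while they covered less. Lamb2 had 25.4 and 32.7 reads per kb and a ratio of 1.29 (1.08 to 1.53), which contains both medians, and its scaled ratios of 1.05 (0.886 to 1.25) and 1.11 (0.931 to 1.31) contain 1. Lamb1 had 28.4 and 27.2 reads per kb, a ratio of 0.960 (0.812 to 1.14). Its interval contains 1 unscaled and lies below 1 by both scalings, at 0.784 (0.663 to 0.930) and 0.824 (0.697 to 0.978), a gene at which mdx has the 3 further peaks of low density. From mdx to mdxTLR4-/-, where its coverage fell, the ratio of Lamb1 was 1.08 (0.931 to 1.25) unscaled. By the scalings it was 1.50 (1.29 to 1.73) and 1.38 (1.19 to 1.59). Lama5 had 0.887 (0.822 to 0.957), 1.23 (1.14 to 1.33) and 1.13 (1.05 to 1.22). Lama3 had 0.817 (0.764 to 0.874), 1.13 (1.06 to 1.21) and 1.04 (0.974 to 1.11). By the first scaling this ratio was above 1 in 21 of 23 members, against 6481 of 7999 over all genes. It was highest at Itga8, with 1.21 (0.918 to 1.59) unscaled, and 1.68 (1.27 to 2.20) and 1.55 (1.17 to 2.03) by the scalings. At Itgb8, the lowest, the ratio of mdxTLR4-/- to mdx was 0.634 (0.499 to 0.807), below both medians, and 0.879 (0.692 to 1.12) and 0.809 (0.636 to 1.03) by the other scalings, which contain 1.

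An H3K27ac peak lay within 5 kb of the start in 7 members in WT (18.9%), against 32.9% of all genes. It did so in 7 members in mdx, against 28.3% of all genes, and in 7 in mdxTLR4-/-, against 30.4%. The members were not the same in each genotype: 5 carried it in all 3 genotypes (13.5%), against 21.8% of all genes, and 4 in some only. Of these 9 members, 8 had no H3K27me3 peak in any genotype, and the exception was Lamc1. Of the 7 members with H3K27ac in WT, mdx and mdxTLR4-/-, 0, 0 and 1 had an H3K27me3 peak in the window in that genotype. Over all genes with H3K27ac near the start these were 1290 of 6855, 1135 of 5887 and 1135 of 6326, so most such genes had none either. No member carried H3K27ac near a start that lay under H3K27me3, in WT, mdx or mdxTLR4-/-, against 0.928%, 0.558% and 0.558% of all genes.

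The 5 members with H3K27ac in all 3 genotypes were integrins that macrophages are known to use. Itgb1, the beta subunit with the most partners (chr8:128685654-128733200, plus strand), had 41, 38 and 35 reads in WT, mdx and mdxTLR4-/- near its start, in a peak over the start and another one upstream. Itga4 (chr2:79255426-79333123, plus strand) had 30, 33 and 34 reads in 1 peak over the start. The ratios of mdx to WT were 0.927 (0.580 to 1.48) for Itgb1 and 1.10 (0.650 to 1.87) for Itga4, and both intervals contain 1. Scaled by the total reads in the peaks of each list, Itga4 had 1.84 times as many reads in mdxTLR4-/- as in WT (1.09 to 3.12), against 1.13 unscaled (0.673 to 1.92).

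Itgam (chr7:128062640-128118491, plus strand) had 40, 33 and 18 reads in WT, mdx and mdxTLR4-/-. The peak at the start had 17, 16 and 18 reads, so the difference lay in the peaks beside it, which were called upstream and at 5 kb in WT, at 3 and 5 kb in mdx and nowhere within 5 kb in mdxTLR4-/-. The ratio of mdxTLR4-/- to mdx was 0.545 unscaled (0.289 to 0.997) and 0.620 by those totals (0.329 to 1.13). A start of the annotated gene Gm49368 lies under the same peak as that of Itgam in WT and mdxTLR4-/-, and reads there cannot be divided between these genes.

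Itgb2, the common beta subunit of the leukocyte integrins (chr10:77530252-77565708, plus strand), had 40, 7 and 13 reads near the start in WT, mdx and mdxTLR4-/-. The ratio of mdx to WT was 0.175 (0.0661 to 0.395), or 0.250 when scaled by the totals in peaks (0.0946 to 0.565). This value depends on the 5 kb limit: WT had a peak of 19 reads from 3949 to 7748 bp, while beyond the peak over the start the next mdx peak, with 20 reads, began at 6149 bp and the next mdxTLR4-/- peak, with 9 reads, at 5949 bp, and neither was counted. The peak over the start alone had 21, 7 and 13 reads, and all H3K27ac peaks in the gene body together had 55, 38 and 29. Unscaled, the mdx value was thus lowest at the start, and mdxTLR4-/- was lowest over the gene body. The total H3K27ac reads in peaks were 0.699 times those of WT in mdx and 0.615 times in mdxTLR4-/-. The gene body counts were not scaled by these totals, so their order may follow the lists.

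Itgav (chr2:83724397-83806916, plus strand) had 19, 8 and 10 reads in WT, mdx and mdxTLR4-/-, in 1 peak over its start. The ratio of mdx to WT was 0.421 (0.159 to 1.01), which at these counts does not set the genotypes apart.

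**Figure D3:**
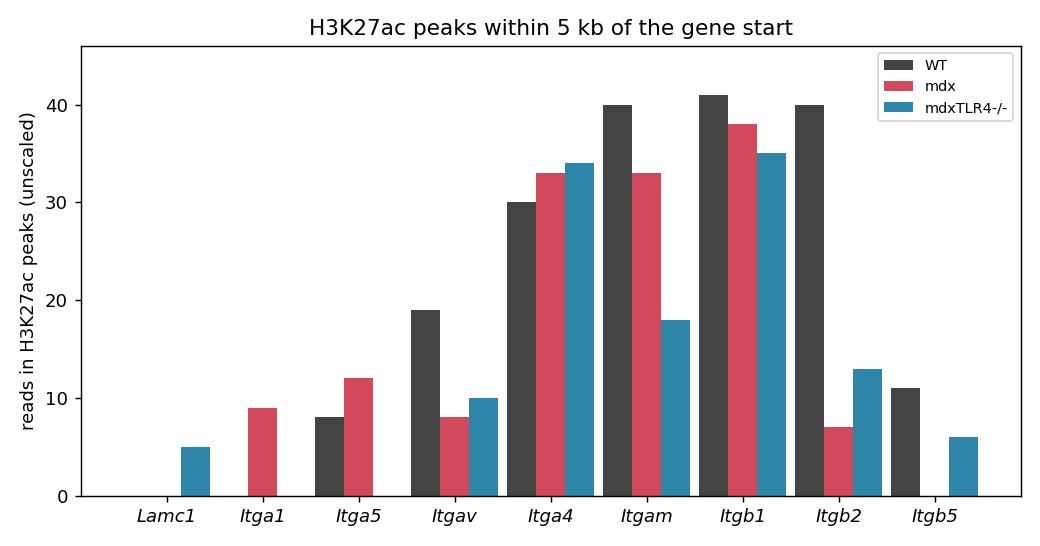
Unscaled reads in the H3K27ac peaks that lie within 5 kb of the start (vertical axis) for the 9 members with such a peak, in WT, mdx and mdxTLR4-/-; each bar is 1 merged list, and no bar means that no peak was called. Itga4 and Itgb1 have 30 or more reads in each genotype, and Lamc1, Itga1, Itga5 and Itgb5 have a bar in some genotypes only.

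The members with H3K27ac near the start in some genotypes only had few reads, at most 12, beside the 5 reads of the weakest peaks in the lists. Itgb5, a vitronectin receptor subunit that takes part in the uptake of dying cells, had 11 reads in WT, none in mdx and 6 in mdxTLR4-/-, and was the 1 member with a peak in WT and none in mdx (2.70%), against 8.28% of all genes. Itga1 had 9 reads in mdx and none in WT and mdxTLR4-/-, and was the 1 member with a peak in mdx and none in WT, against 3.62%. Its start lies beside that of the annotated gene Gm49395 under the same peak. Itga5 had 8 reads in WT, 12 in mdx and none in mdxTLR4-/-. In WT that peak lay upstream, from -5637 to -4238 bp of the start, and in mdx it lay over the start. Lamc1 had 5 reads in mdxTLR4-/- only and was the 1 laminin gene with H3K27ac near its start.

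Counted by pair, 2 members had a peak in mdx and none in mdxTLR4-/-, Itga1 and Itga5, against 4.95% of all genes. Another 2 had one in mdxTLR4-/- and none in mdx, Itgb5 and Lamc1, against 7.06%. Itga5 was the 1 member with a peak in WT and none in mdxTLR4-/-, against 7.13%, and Lamc1 the 1 with one in mdxTLR4-/- and none in WT, against 4.59%. With 37 members a single gene is 2.70%, so none of these counts can be set apart from the share of all genes.

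Across the gene body, 20 members (54.1%) had an H3K27ac peak in at least 1 genotype, against 45.5% of all genes, and 11 of these (29.7%) had none near the start in any, against 9.30%. The members were also longer, with a median gene length of 64.4 kb against 17.6 kb over all genes, and the part of length in these shares was not tested. The strongest was an intronic peak of Itgb5 (chr16:33920601-33924400 in WT), 90936 to 94735 bp from the start, with 59, 35 and 40 reads in WT, mdx and mdxTLR4-/-. Itgb5 was thus acetylated within the gene in mdx although no peak was called at its start. Itga6 had a peak far into the gene with 18, 18 and 13 reads, and Itga9, under H3K27me3 over much of its length, had an H3K27ac peak with 16, 20 and 12 reads. At Lama1 a peak of 200 bp in an intron held 32 reads in WT and 22 in mdxTLR4-/-, and 26 reads in mdx in 800 bp. The other H3K27ac peaks of 200 bp at members, at Lama2 and Lamb3 in WT, held 6 and 8 reads. The H3K27ac peak at the 3′ end of Lamb2, with 21, 7 and 11 reads, lies over the start of the neighbouring Usp19.

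**Figure D4:**
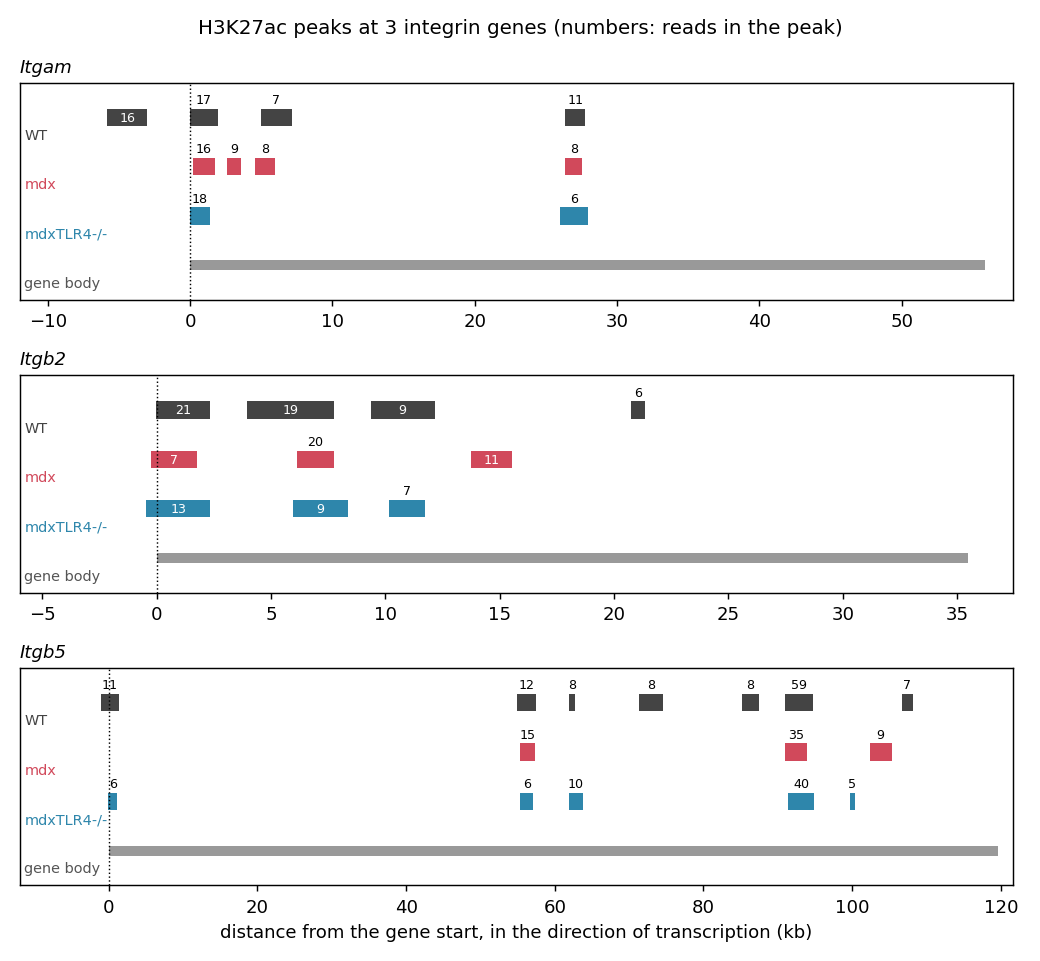
H3K27ac peaks at Itgam, Itgb2 and Itgb5 in WT, mdx and mdxTLR4-/-, as bars along the distance from the gene start in kb, with the gene body in grey and the unscaled reads of each peak written at it. Each genotype has a peak at the start of Itgam and Itgb2, and the intronic peak of Itgb5 with 59, 35 and 40 reads is the strongest shown.

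Lama2, Itga6, Itga10, Itgal and Itgb7 had neither an H3K27me3 peak nor H3K27ac near the start in any genotype. In 3 of them, Itga10, Itgal and Itgb7, no peak of either mark was called in the gene body either. Itgal and Itgb7 are integrins of lymphocytes and other leukocytes, and Itga10 is the collagen receptor subunit of cartilage, so the unmarked genes were not of one tissue.

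The reference table held a promoter for 23 of the 37 members. The 9 with H3K27me3 over the start in WT had a median of 13.0 CG dinucleotides in 300 bases, with a range of 4 to 24. The 6 with H3K27ac near the start in WT had a median of 16.5 and a range of 6 to 27, and the 8 with neither had 5.00 and a range of 1 to 23, beside a median of 7.00 over 31396 promoters. Members with either mark thus had more CG than members with neither in the median, and the ranges overlapped. GAGGAAG on either strand was found in 22.2%, 33.3% and 37.5% of these 3 sets, which is 2, 2 and 3 promoters, and in 13.4% of all promoters. For Lamb3, Itgb6 and Itga9 the RefSeq start lies 94544, 48950 and 105002 bp into the GENCODE gene, so that their promoter is not at the gene start used for the marks.

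**Figure D5:**
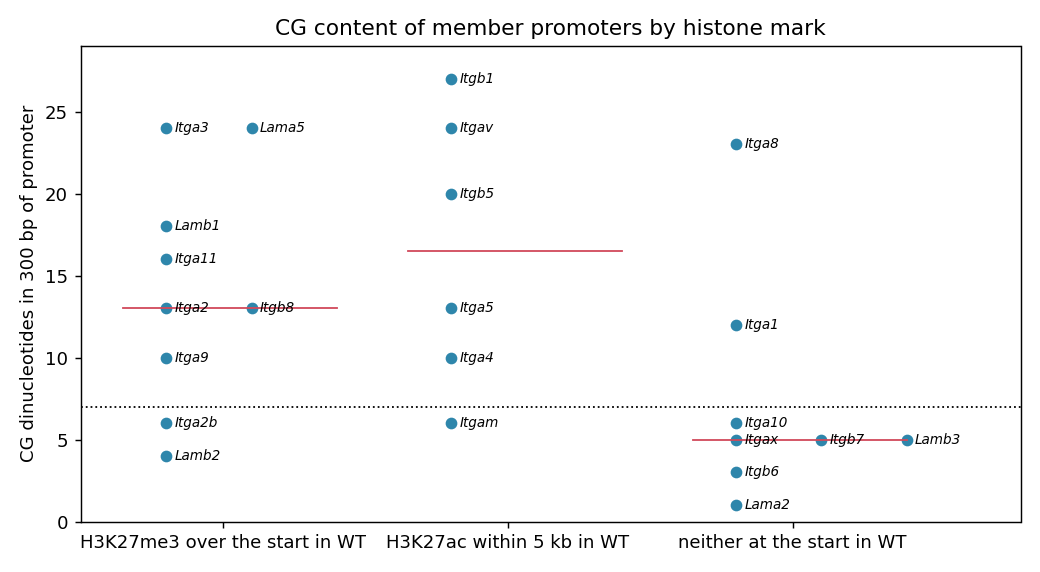
Number of CG dinucleotides in the 300 bases of promoter (vertical axis) for the 23 members in the reference table, by the mark at the start in WT; red lines are the medians of 13.0, 16.5 and 5.00, and the dotted line is the median of 7.00 over all promoters. Members with either mark reach from under 7 to over 20, and 6 of the 8 members with neither are under 7.

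Genes that work with laminins and integrins differed by list in the marks they carried. Of 11 further genes of the basement membrane and of laminin binding, 4 were at least 50% covered by H3K27me3 in each genotype, with medians of 30.9%, 34.0% and 28.3%. They were Hspg2, the proteoglycan perlecan, Bcam, a laminin receptor of red blood cells and epithelium, and the collagen IV chains Col4a1 and Col4a2. Nid1, which links laminin to collagen IV, was covered over 29.1% in WT, 49.1% in mdx and 28.3% in mdxTLR4-/-, and so was highest in mdx as Lamb1 was. Agrn, agrin, was the 1 gene of this list with H3K27ac near its start, with 22, 23 and 6 reads, and its window was also covered by H3K27me3 over 32.5%, 25.7% and 34.0%.

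Of 15 integrin ligands, 1, vitronectin (Vtn), was at least 50% covered in WT, mdx and mdxTLR4-/-, at 100% each. The ligand genes Icam1, Madcam1, Thbs1 and Tgfb1, had H3K27ac near the start in all 3 genotypes, with 31, 37 and 26 reads at Tgfb1. Madcam1, which had 21, 15 and 12 reads, was also covered by H3K27me3 over 32.5% in mdx and had no such peak in WT and mdxTLR4-/-. Of 20 cytoplasmic adaptors and associated proteins, 3 were at least 50% covered in each genotype, namely Src, Bcar1 and Lims2, and 11, 8 and 9 had H3K27ac near the start in WT, mdx and mdxTLR4-/-, a larger share than among the members. Ptk2, the focal adhesion kinase, carried H3K27ac near a start under H3K27me3 in WT, with 8 reads and coverage of 29.6%, which no member did. Fermt3, the kindlin of blood cells that activates integrins, had 63, 59 and 54 reads, and Tln1, the talin that binds beta subunits, had 18, 36 and 21. The blood cell kindlin Fermt3 had no H3K27me3 peak, while Fermt1, the kindlin of epithelium, was covered over 38.7%, 44.6% and 21.0%.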

How the data were processed

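H3K27me3 and H3K27ac were measured by native ChIP-seq in untreated BMDM. The authors aligned the reads to mm10 by Bowtie2 (2.3.4 in the submitters' processing notes) and pooled replicates, and they called peaks by SICER2 (version 2.0 in those notes) in windows of 200 bp with gaps up to 600 bp, at an FDR of 0.01. The value of each deposited peak is the count of ChIP reads in it, which the authors scaled neither for depth nor for peak length. The label mTLR4 was read as mdxTLR4-/-, since a sample title pairs them. The depth of the libraries is not given in the sources used here.

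From these 6 lists, with Python 3.11.15, numpy 2.4.6 and scipy 1.17.1, H3K27me3 coverage was computed for each gene window of GENCODE vM21 (the body with 5 kb before and 1 kb after it) and H3K27ac peaks were assigned to a start within 5 kb, touching by at least 1 bp. Read counts carry Poisson intervals and ratios exact Clopper-Pearson intervals, at 95%. Input libraries were not used. The overlap functions were tested on simulated data. The members, their role groups, the partner and marker lists and the limits of 50% and 10 points were chosen with earlier results of these data known. Full values were given for members on both sides of 50%, the 5 largest differences each way from WT to mdx and from mdx to mdxTLR4-/-, and members with H3K27ac near the start, and every member was accounted for in its group, except that the values of 1 member, which the counts include, are not reported here. Promoters came from RefSeq, and 14 members without an entry were left out of that step. The alternatives tried were other peak sets, limits, windows, starts and scalings.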

Additional observations from a re-analysis of the deposited data

How the results depend on the processing

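Of 210 values recomputed under 17 settings for 36 results, 156 equalled the main value or stayed within 1.5 times of it on the same side. Another 48 moved further, or to or from 0, and 6 reversed. Density ratios were compared by their distance from 1. The cause was not tested. With the limit at 80% of the window, 5 members passed in WT. The median coverage in WT was 2.29% with peaks at least 1.5 times as dense as the 1st percentile. In the 5 kb to either side of the start the medians of WT, mdx and mdxTLR4-/- were 24.0%, 20.0% and 5.86%, and over the gene body alone 2.23%, 3.07% and 1.51%. From WT to mdx, the same number of peaks per list gave 6 members lower and 0 higher by 10 points, a limit of 20 points 1 and 0, a limit of 5 points 3 higher, the window around the start 4 higher and the body alone 2 higher. The mean difference was -1.15, -2.61 and -1.40 points with peaks of at least 2 kb, equal peak numbers and denser peaks, and turned to 0.0268 around the start. From mdx to mdxTLR4-/-, 2 members were lower with denser peaks, 8 at 5 points, 1 at 20 points, and 7 around the start, where 2 were higher. The median difference became 0 with longer, equally many or denser peaks and around the start, and the mean -2.03 with denser peaks. From WT to mdxTLR4-/-, 8 were lower with equal peak numbers, 8 at 5 points with 1 higher, and 2 at 20 points, and 3 were higher around the start.

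With H3K27ac peaks of at least 10 reads, 4 members passed in mdx, 3 had a peak in WT and none in mdx, 1 in mdx and none in mdxTLR4-/-, and 0 in mdxTLR4-/- and none in WT. For WT and not mdx, the upstream 5 kb gave 2 and any transcript start 0. For mdx and not WT, 1 kb around the start and 1000 bp under peaks each gave 2. For mdxTLR4-/- and not mdx, equal peak numbers and any start each gave 1. For WT and not mdxTLR4-/-, 1 kb gave 0, any start 2 and 1000 bp 0, and for mdxTLR4-/- and not WT, equal peak numbers gave 0. The median density ratio of mdx to WT was 0.962 scaled to reads in peaks (reversed) and 1.01 relative to the 1st percentile. That of mdxTLR4-/- to mdx reversed to 1.15 and 1.06, and that of mdxTLR4-/- to WT to 1.09 and 1.06. No paired analysis was possible because the replicates of each genotype were merged into 1 peak list, and no replicate could be left out for the same reason. Peaks of 5 to 12 reads are near the limit of detection.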
